A study of Mus musculus with 6 samples.

Results

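The YAP and TAZ co-activators, the TEAD transcription factors, the LATS kinases and their target genes Amotl2 and Ankrd1 were followed in mouse primary osteoblasts, the bone-forming cells. The 10 genes were chosen by name, as members and targets of the Hippo pathway, and each was found by its Ensembl ID among the 51912 IDs of the table. All 10 passed the filter on low counts that kept 19017 genes for testing. The cells were grown from the skull caps (calvaria) of C57BL/6J pups 1 d old, all of them Mark3 flox/flox, so that both groups carried the same floxed alleles. For 24 h they received an adenovirus carrying GFP (3 libraries, labelled wild-type and called WT) or CRE (3 libraries, labelled Mark3-/- and called Mark3-KO). The Cre recombinase deletes floxed DNA, and Mark3 encodes a protein kinase known for acting on proteins that bind microtubules. Genotype and virus thus changed together, and the effects of Cre itself and of the loss of Mark3 cannot be told apart.

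In the Hippo pathway, a chain of kinases ends in LATS1 and LATS2, which phosphorylate the co-activators YAP and TAZ (the product of Wwtr1) and so keep them out of the nucleus or mark them for destruction. When the kinases are quiet, YAP and TAZ enter the nucleus and bind the TEAD factors, which hold the DNA. In the osteoblast lineage TAZ is also known as a partner of RUNX2, and Par-1, the fly relative of the MARK kinases, is known to act on the Hippo kinase. Much of this control is exerted on proteins, by phosphorylation and location, which transcript counts do not measure.

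Levels are CPM, counts scaled for library size with TMM (which sets the bulk of genes equal between libraries). Each fold change is a log2 value, positive where Mark3-KO was higher, from edgeR's quasi-likelihood test. A call needs a Benjamini-Hochberg adjusted p below 0.05 over all tested genes. The libraries held 56925883 to 71445243 counts. Mark3 was at 113, 118 and 118 CPM in the 3 WT libraries and at 47.6, 52.4 and 44.1 CPM in the Mark3-KO libraries, a log2 fold change of -1.27 (SE 0.10, edgeR adjusted p 0.0153). The Mark3 call was lost in edgeR without WT replicate 2 (adjusted p 0.128), Mark3-KO replicate 2 (0.0798) or Mark3-KO replicate 3 (0.0681).

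The libraries were ordered by how GC-rich transcripts fared. In the 10% of tested genes with the most GC (at least 57.2%), the median log2 deviation from the 6-library mean was 0.96, 0.57 and 0.07 in WT replicates 1, 2 and 3. It was -0.18, -0.58 and -0.80 in Mark3-KO replicates 1, 2 and 3. WT replicate 3 and Mark3-KO replicate 1 were the pair of libraries with the smallest difference (chi-square per degree of freedom 66.35, against 76.4 to 234.5 for pairs of 1 group, so that no library was a copy of another). For this reason each fold change below is given also from an edgeR fit with a GC correction, in which a smooth curve of deviation on GC content was removed from each library. The GC order followed the groups, with every WT library above every Mark3-KO library. The correction can therefore remove or add a difference between groups, and which of these it did cannot be told. Among tested genes, 4666 had an adjusted p between 0.05 and 0.055, so calls at 0.05 lay at an edge. Scaling by library size alone called 2190 genes higher and 2320 lower, against 9 and 32 with TMM, with the median over all tested genes at 0.13 in place of 0.02 on the log2 scale.

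The cultures carried the osteoblast markers, whose 10 genes summed to 19600 to 39720 CPM in WT and 14110 to 15740 CPM in Mark3-KO, led by Col1a1 and Col1a2. The late markers Bglap and Bglap2 (osteocalcin) were low, at 0.703 ± 0.311 and 1.305 ± 0.306 CPM in WT (SD, n = 3). The 6 epithelial markers summed to at most 0.477 CPM, with Krt14 at 0 in each library, and the 6 endothelial markers to at most 4.71 CPM. The 6 chondrocyte markers summed to 673.7 to 1744 CPM in WT and 351.9 to 586 CPM in Mark3-KO, and the 6 of smooth muscle and pericytes to 153 to 274 and 108 to 140.1 CPM. Those of skeletal muscle summed to 5.22 to 11.2 and 1.81 to 4.17 CPM, those of adipocytes to 15.1 to 19.96 and 19.99 to 22.5 CPM, and those of macrophages and osteoclasts, with the cathepsin K gene Ctsk at most of it, to 202 to 229 and 209 to 221 CPM. Their part in the values below was not tested, and in bulk RNA fewer cells of a type and less RNA per cell cannot be told apart. These sums are on the TMM scale, without GC correction. On that scale the log2 fold change was -1.52 for Col2a1, -1.74 for Col1a1 and -0.74 for Col1a2. With the GC correction it was 0.05, -0.43 and 0.13. The median went from -0.46 to -0.30 for the osteoblast markers and from -0.98 to -0.45 for the chondrocyte markers. The sums hide mixed directions. At an unadjusted edgeR p below 0.05, 1 osteoblast marker was higher and 5 lower, against 20.8 and 24.8% of tested genes. The higher was Spp1, at 0.34 (-0.05 with the GC correction). Of the macrophage and osteoclast markers 2 were higher (Ptprc at 0.67, Adgre1 at 0.53) and 1 lower (Csf1r at -0.51). With the GC correction these were at 0.12, 0.39 and 0.13.

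The promoters of Amotl2, Ankrd1 and the matricellular gene Ccn1 are shown because these are classical targets whose transcripts serve as readouts of YAP and TEAD. Each sequence is the 250 bases before the RefSeq start site (build GRCm38.p6), written in the direction of the gene, and capitals mark GGAATG, the core letters of the TEAD motif, or its reverse complement CATTCC. The windows are chr9:102717554-102717803 on the plus strand for Amotl2, chr19:36119845-36120094 on the minus strand for Ankrd1 and chr3:145649986-145650235 on the minus strand for Ccn1.
Amotl2: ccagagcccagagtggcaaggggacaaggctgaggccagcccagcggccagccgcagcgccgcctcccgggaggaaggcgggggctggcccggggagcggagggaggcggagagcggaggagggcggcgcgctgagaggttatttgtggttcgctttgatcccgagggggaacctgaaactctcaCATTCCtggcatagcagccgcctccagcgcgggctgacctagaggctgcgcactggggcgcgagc
Ankrd1: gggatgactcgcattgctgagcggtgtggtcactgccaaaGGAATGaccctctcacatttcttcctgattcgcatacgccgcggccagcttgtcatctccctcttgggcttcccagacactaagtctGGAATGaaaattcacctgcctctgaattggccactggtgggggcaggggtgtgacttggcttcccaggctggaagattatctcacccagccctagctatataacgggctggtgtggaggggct
Ccn1: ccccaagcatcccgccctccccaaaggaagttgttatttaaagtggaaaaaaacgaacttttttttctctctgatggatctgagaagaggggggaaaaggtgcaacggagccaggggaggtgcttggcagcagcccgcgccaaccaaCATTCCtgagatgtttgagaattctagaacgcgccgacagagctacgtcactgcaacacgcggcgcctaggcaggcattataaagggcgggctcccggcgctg

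The match began 65 bases before the start in Amotl2, 210 and 123 bases before it in Ankrd1, and 103 bases before it in Ccn1. Of the 10 genes, 8 had a promoter in the RefSeq table (250 bases before to 50 after a start), and 6 of these 8 held GGAATG on either strand in at least 1 of their windows (Yap1, Wwtr1, Tead3, Lats2, Amotl2 and Ankrd1). Counted by window, 8 of the 12 windows of these genes held it, against 14.7% of all 32851 promoter windows of the same length. Windows of 1 gene can overlap and are not independent. Those of Wwtr1 hold the same match, 136 bases before 1 start and 170 before the other, which is counted in both. In the list of YAP and TEAD targets described below, which shares Lats2, Amotl2 and Ankrd1, 7 of 17 windows held it, from 7 of the 15 genes with a promoter in the table. The AP-1 letters TGANTCA, which can share the bases TG with the TEAD core, were in none of the 12 windows of the 8 genes and in 7.81% of all windows. A match is a stretch of letters, and binding was not measured here.

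None of the 10 genes was called (edgeR adjusted p), where 0.216% of all tested genes were (0.0473% higher and 0.168% lower). At an unadjusted p below 0.05 in edgeR there were 6 of 10, 5 lower (Tead1, Tead2, Tead3, Tead4 and Lats2) and 1 higher (Lats1), against 45.7% of all tested genes (24.8% lower and 20.8% higher). These 6 also had an edgeR adjusted p below 0.1, as did 43.7% of all tested genes (24.0% lower and 19.7% higher). After the GC correction 0 were called, against 0.379%, while Tead1 and Wwtr1, both lower, had an unadjusted edgeR p below 0.05, against 26.3%, and an adjusted p below 0.1, against 8.63%. The DESeq2 Wald test called 5, all lower (the 4 TEAD genes and Amotl2), against a background of 38.6% (23.1% lower and 15.5% higher), and limma-voom called 0, against 0.142%. Tead1, Tead3 and Tead4 passed in edgeR with library size alone (background 23.7%) and with a filter of 1 CPM in 3 libraries (background 37.4%). The 6 libraries did not overlap between the groups for 7 of 10 genes, 6 lower and 1 higher, against 53.3% of tested genes (27.5% lower and 25.8% higher). The median log2 fold change of the 10 was -0.66, and -0.19 with the GC correction, where that of all tested genes was 0.02 and 0.03. Whether the 3 libraries of a group stem from different cultures or litters is not in the labels. The p-values therefore describe the spread among these libraries alone, which may be technical.

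**Figure D1:**
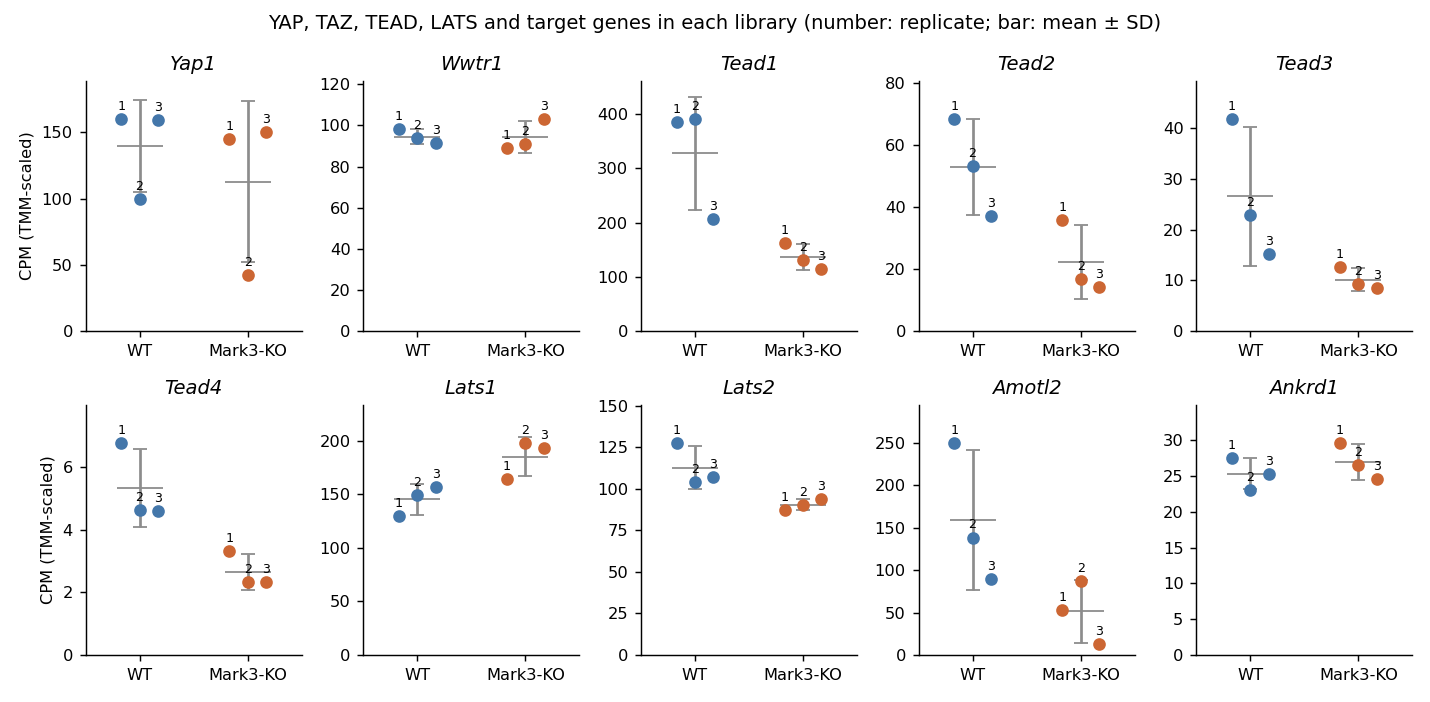
Each panel plots the CPM (vertical axis, from 0) of 1 gene in the 3 WT and 3 Mark3-KO libraries, with replicate numbers at the points and mean ± SD as the grey bar. On this scale, before GC correction, the 4 TEAD genes and Amotl2 sit lower in each Mark3-KO library. Wwtr1 and Ankrd1 overlap between the groups, and Yap1 is lowest in replicate 2 of both.

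The co-activators differed in how even they were. Yap1 (chromosome 9, 7931999 to 8004596, minus strand, protein coding, as are all 10, in GRCm38) measured 159.9, 100 and 159 CPM in the WT libraries. In the Mark3-KO libraries it measured 145, 42.6 and 150 CPM, from 10666, 2539 and 9250 counts. Replicate 2 was the lowest library of each group and the other 4 libraries lay close together, so the groups overlapped. Yap1 had a log2 fold change of -0.31 (SE 0.46, edgeR adjusted p 0.621), and it was 0.07 without Mark3-KO replicate 2 and -0.60 (SE 0.46, edgeR adjusted p 0.453) with the GC correction. Yap1 shares 116 exon bases (1.25% of its exon bases) with Gm20416 on the opposite strand, and Gm20416 held 5 to 12 counts per library.

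Wwtr1 (chromosome 3, 57455649 to 57575910, minus strand), the gene of TAZ, measured 98.3, 93.8 and 91.5 CPM in WT, against 89.2, 90.8 and 103 in Mark3-KO. It was the most even of the 10 genes in WT, and the groups overlapped. The log2 fold change came to -0.0028 (SE 0.09, edgeR adjusted p 0.986). After GC correction Wwtr1, with 43.9% GC, was at -0.38 (SE 0.10, edgeR adjusted p 0.0976) and its groups no longer overlapped, at 94.6 to 121.6 CPM in WT and 80.2 to 84.5 in Mark3-KO. Per kilobase of exon, TAZ transcripts made up 54.4, 64.5 and 52.7% of the sum of both co-activators in WT, and in Mark3-KO 54.4, 80.5 and 57%. The high value of 80.5% was in Mark3-KO replicate 2, the library where Yap1 was low.

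The protein-coding genes with the most similar profile over the 6 libraries were, for Yap1, Mtmr10 (Pearson r 0.972), Loxl2 (0.967) and Ebf3 (0.963). Ebf3, an early B-cell factor family member, measured 12.1 CPM in WT replicate 2 and 4.01 CPM in Mark3-KO replicate 2, the lowest values of its groups. For Wwtr1 they were Stk35 (0.949), Plagl1 (0.948) and Atp6v1g1 (0.933), and for Ankrd1 Rpl27a (0.982), Cnbp (0.970) and Fastkd3 (0.967). The points of each correlation are the same 6 libraries, without GC correction, and 10283 genes of at least 5 CPM were compared. An r of at least 0.9 was reached by 40 genes with Yap1, 10 with Wwtr1 and 13 with Ankrd1. Shared regulation was not tested.

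The TEAD genes encode the DNA-binding partners of YAP and TAZ. On the TMM scale all 4 measured lower in each Mark3-KO library than in any WT library, as did 27.5% of all tested genes. Tead1 (chromosome 7, 112679318 to 112906807, plus strand) measured 385, 391 and 207 CPM in WT, against 163, 131 and 115 in Mark3-KO. WT replicate 3 lay nearer to the Mark3-KO libraries than to the other WT libraries. Tead1 had a log2 fold change of -1.26 (SE 0.27, edgeR adjusted p 0.0506), with 1646 of 19017 tested genes (8.66%) at or below this value. Tead1 had a GC content of 46.5%, near the median of tested genes (48.9%). Once GC was corrected for, Tead1 was at -1.47 (SE 0.30, edgeR adjusted p 0.0941), with 231 tested genes (1.21%) at or below it. The corrected levels of Tead1 were 433, 420.2 and 211 CPM in WT, against 157, 122 and 105 in Mark3-KO, which again did not overlap. With any library left out the log2 fold change of Tead1 stayed between -1.52 and -1.13.

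Tead2, Tead3 and Tead4 had GC-rich transcripts, at 57.9, 58.1 and 58.1%. Tead2 (chromosome 7, 45215753 to 45233644, plus strand) measured 68.3, 53.4 and 37.3 CPM in WT, against 35.9, 16.95 and 14.2 in Mark3-KO. Tead3 (chromosome 17, 28331671 to 28350817, minus strand) measured 41.8, 23.0 and 15.1 CPM in WT, against 12.7, 9.23 and 8.46 in Mark3-KO. The groups stood apart by a narrow gap in both genes, and WT replicate 3 and Mark3-KO replicate 1, the most similar pair of libraries, lay on either side of it. Tead4 (chromosome 6, 128224288 to 128300823, minus strand) was the lowest of the 4, with 395, 255 and 308 counts in WT and 245, 139 and 143 in Mark3-KO (5.33 ± 1.25 and 2.66 ± 0.574 CPM).

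On the TMM scale Tead2 was at a log2 fold change of -1.24 (SE 0.40, edgeR adjusted p 0.0606), Tead3 at -1.39 (SE 0.38, 0.0511) and Tead4 at -1.001 (SE 0.24, 0.0506). The GC correction put them at -0.18 (SE 0.18, edgeR adjusted p 0.554), -0.19 (SE 0.16, 0.490) and 0.11 (SE 0.16, 0.710). In corrected levels the groups overlapped for each of these genes. Tead2 was at 34.9 to 35.2 CPM in WT and 25.8 to 40.5 in Mark3-KO. Tead3 was at 14.2 to 21.0 and 14.3 to 15.5 CPM, and Tead4 at 3.04 to 4.32 and 3.63 to 4.25 CPM. The 4 TEAD genes thus had similar fold changes on the TMM scale, and after the correction Tead1 was at -1.47 while the others were between -0.19 and 0.11. The difference between these fold changes was not tested. All 4 TEAD genes passed in edgeR without WT replicate 3 (adjusted p 0.0251 for Tead1) or without Mark3-KO replicate 1 (0.0294 for Tead1), and none passed with any other library left out. In those fits 32.9 and 32.1% of all tested genes passed as well. Tead2 shares 13 exon bases with Cd37 on the opposite strand, which held 9 to 55 counts per library.

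**Figure D2:**
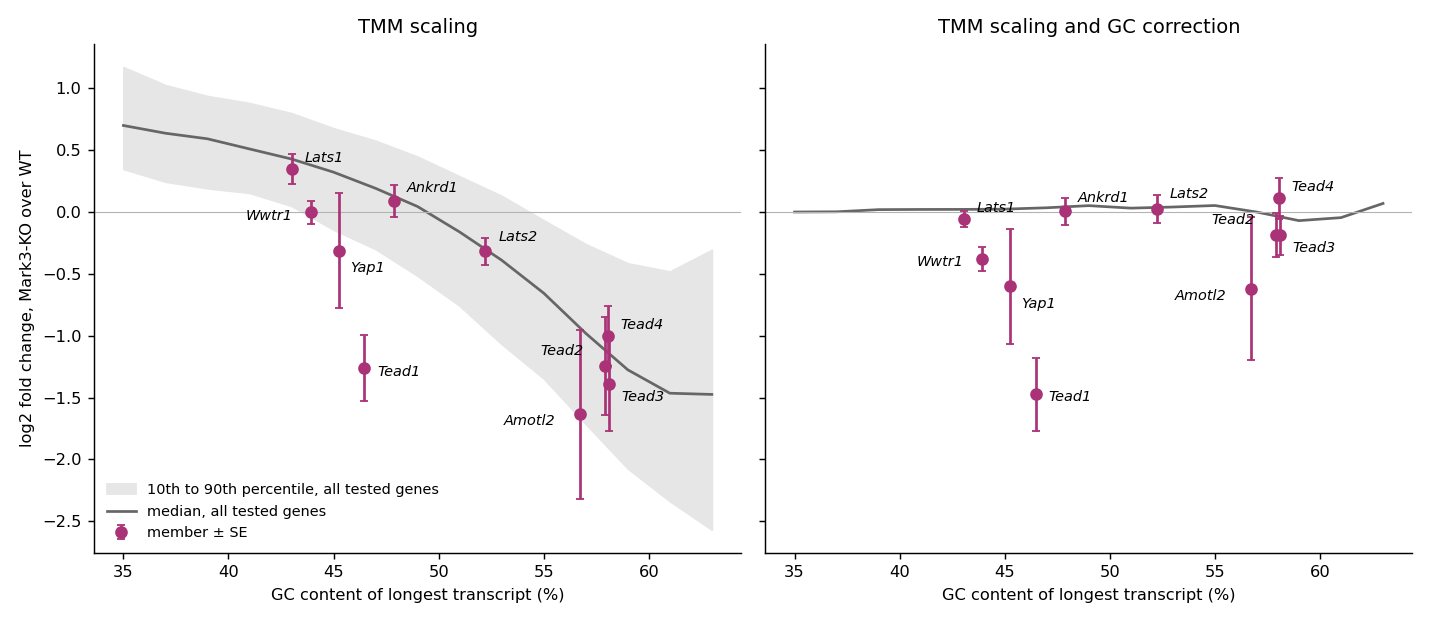
The log2 fold change of Mark3-KO over WT (vertical axis) is plotted against the GC content of the longest transcript (horizontal axis, percent) for the 10 genes (points ± SE), with the median of all tested genes as a line and, at left, their 10th to 90th percentile as a band. At left Tead2, Tead3 and Tead4 lie near the line and Tead1 (-1.26) below the band, and at right, after the GC correction, Tead1 (-1.47) lies lowest.

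Compared per kilobase of exon, which puts genes of different length on 1 scale, Tead1 was the most abundant TEAD transcript in each library. It made up 55.9, 64.5 and 57.5% of the TEAD sum in WT and 53.8, 63.4 and 63.6% in Mark3-KO. Tead2 followed at 27.5 ± 2.22% and 26.3 ± 6.29% in the respective groups, then Tead3 at 9.46 ± 2.45% and 8.97 ± 0.492%, and Tead4 at 3.80 ± 0.960% and 4.41 ± 0.374% (SD, n = 3 per group). On this TMM scale the share of each gene differed between the groups by less than the larger of its SDs. The sum itself was 50.8, 44.6 and 26.6 CPM per kb in WT and 22.3, 15.2 and 13.4 CPM per kb in Mark3-KO. In the GC-corrected levels each share differed by more than the larger of its SDs. The share of Tead1 was 69.3 ± 8.61% in WT and 49.1 ± 2.37% in Mark3-KO, and that of Tead2 20.8 ± 6.17% and 33.3 ± 2.83%. Tead3 was at 6.91 ± 1.37% and 11.75 ± 2.38%, and Tead4 at 2.94 ± 1.43% and 5.78 ± 1.31%. The GC-corrected sum was 36.95 ± 9.37 CPM per kb in WT and 19.1 ± 3.54 in Mark3-KO. These lengths count the exon bases of every annotated isoform, and so understate the level of genes with many isoforms.

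**Figure D3:**
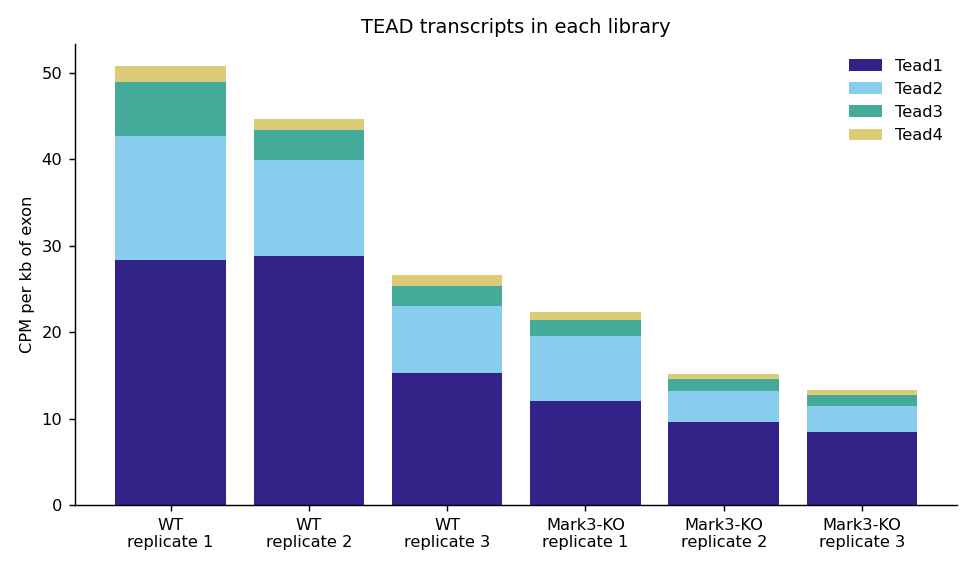
Stacked bars give the level of Tead1, Tead2, Tead3 and Tead4 (CPM per kb of exon, from 0) in each of the 6 libraries, before GC correction. The sum is 50.8 CPM per kb in WT replicate 1 and 13.4 in Mark3-KO replicate 3, with WT replicate 3 (26.6) and Mark3-KO replicate 1 (22.3) next to each other, and Tead1 is the largest part of each bar.

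The LATS kinases lay on opposite sides. Lats1 (chromosome 10, 7681214 to 7716460, plus strand) measured 129, 149 and 157 CPM in WT, against 164, 198 and 193 in Mark3-KO, higher in each Mark3-KO library. The log2 fold change came to 0.35 (SE 0.12, edgeR adjusted p 0.0688), and it passed without Mark3-KO replicate 1 (0.0431), as did 32.1% of all tested genes. Lats2 (chromosome 14, 57689662 to 57758388, minus strand), itself a YAP target gene, measured 128, 104 and 107 CPM in WT, against 87.5, 90.3 and 93.8 in Mark3-KO, lower in each. Lats2 had a log2 fold change of -0.32 (SE 0.11, edgeR adjusted p 0.0675). The transcript GC content was 43.0% for Lats1 and 52.2% for Lats2, and with the GC correction the fold changes were -0.06 (SE 0.07, edgeR adjusted p 0.619) and 0.02 (SE 0.11, 0.921).

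Per kilobase of exon, the ratio of Lats1 to Lats2 was 0.968, 1.37 and 1.41 in WT, against 1.79, 2.097 and 1.97 in Mark3-KO. From GC-corrected levels it was 1.596 ± 0.176 and 1.52 ± 0.219, a difference smaller than the spread between libraries. Lats2 shares 2955 of its exon bases (42.4%) with the gene model Gm49361 on the same strand, which is not among the IDs of the deposited counts. How reads that match both models were counted is not given, so the values of Lats2 are uncertain to that extent.

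Amotl2 (chromosome 9, 102716672 to 102733418, plus strand) encodes an angiomotin that binds YAP at junctions and is itself induced by YAP. It was the least even gene of the 10, at 250.1, 139 and 89.4 CPM in WT, against 53.05, 87.6 and 13 in Mark3-KO (14584, 7630 and 5999 counts against 3910, 5221 and 799). WT replicate 3 and Mark3-KO replicate 2 differed by under 2 CPM, so the groups were apart by a narrow gap. Amotl2 had a log2 fold change of -1.64 (SE 0.69, edgeR adjusted p 0.110), moving to -2.28 without replicate 2 of Mark3-KO and to -1.19 without its replicate 3. At a GC content of 56.7% it was at -0.62 (SE 0.58, edgeR adjusted p 0.534) with the GC correction. The corrected levels of Amotl2 were 140.3, 96.5 and 84.0 CPM in WT, against 58.4, 128 and 21.9 in Mark3-KO, which overlapped.

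Ankrd1 (chromosome 19, 36111961 to 36120099, minus strand), which encodes a nuclear ankyrin-repeat protein and is a widely used readout of YAP activity, was even across all libraries. It measured 27.5, 23.1 and 25.3 CPM in WT, against 29.6, 26.5 and 24.6 in Mark3-KO, and the groups overlapped. The log2 fold change came to 0.09 (SE 0.13, edgeR adjusted p 0.611), and 0.0058 (SE 0.11, edgeR adjusted p 0.980) with the GC correction. On the TMM scale the target Amotl2 thus measured lower, while the fold change of Ankrd1 was smaller than its SE, and neither gene passed.

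By level per kilobase of exon, the order in WT was Amotl2 (25.3 ± 13.1 CPM per kb), Tead1 (24.2 ± 7.69), Lats1 (19.9 ± 1.96), Wwtr1 (19.8 ± 0.731), Lats2 (16.2 ± 1.86), Yap1 (15.1 ± 3.71), Tead2 (11.1 ± 3.25), Ankrd1 (8.78 ± 0.764), Tead3 (3.96 ± 2.04) and Tead4 (1.48 ± 0.347). Neighbours in this order differed by less than the larger of their SDs, apart from Wwtr1 and Lats2, Yap1 and Tead2, Ankrd1 and Tead3, and Tead3 and Tead4. In Mark3-KO the order was Lats1 (25.4 ± 2.53 CPM per kb), Wwtr1 (19.7 ± 1.58), Lats2 (12.99 ± 0.455), Yap1 (12.2 ± 6.56), Tead1 (10.1 ± 1.80), Ankrd1 (9.33 ± 0.880), Amotl2 (8.15 ± 5.94), Tead2 (4.67 ± 2.47), Tead3 (1.51 ± 0.334) and Tead4 (0.740 ± 0.160). Tead1 and Amotl2, the leading transcripts in WT, lay in the middle of the Mark3-KO order on this TMM scale. No order was made from GC-corrected levels. The SD of Amotl2 was larger than its distance from its neighbours in both groups, so its place is uncertain.

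The wider pathway was read through 5 lists. With the settings used throughout, edgeR called no gene of these lists, where 0.216% of all tested genes were called. That count of 0 depended on the setting. With the filter of 1 CPM in 3 libraries edgeR called 6 of the 17 upstream kinases and adaptors, 7 of the 15 junction and polarity genes, 12 of the 15 STRIPAK genes, 1 of the 6 turnover and cofactor genes and 1 of the 22 targets, against 37.4% of all genes tested there. With library size alone it called 5, 4, 10, 1 and 1 of them, against 23.7%. Counts at an unadjusted edgeR p below 0.05 are set against 20.8% of tested genes higher and 24.8% lower, and those of the DESeq2 Wald test against 15.5% higher and 23.1% lower. With the GC correction 26.3% of tested genes had an unadjusted edgeR p below 0.05, in either direction. In the same order, the median GC content of the lists was 45.4, 52.4, 44.7, 51.0 and 50.1%, against 48.9% for all tested genes. Of the 17 upstream kinases and adaptors, 5 were higher and 4 lower at that level (4 and 3 with the DESeq2 Wald test), with a median log2 fold change of 0.23. Taok1 and Taok2, kinases that activate the Hippo kinases, had opposite signs. Taok1 measured 160.4 ± 45.8 CPM in WT, against 324 ± 56.6 in Mark3-KO (log2 fold change 1.01, edgeR adjusted p 0.0506), and Taok2 89.5 ± 17.8 and 51.4 ± 7.02 CPM (-0.80, 0.0506). The GC content of Taok1 was 40.6% and that of Taok2 56.95%, and GC correction put them at 0.45 and 0.21. Map4k5, of a kinase family that acts beside the Hippo kinases, was at 0.46 and its relative Map4k2 at -0.81, while Stk3, the gene of the Hippo kinase MST2, was at 0.56 (edgeR adjusted p 0.0506, 0.0518 and 0.0519). After the GC correction they were at 0.19, -0.05 and -0.04, and the median of the list was -0.03. In that fit 2 genes of the list were higher and 1 lower at an unadjusted edgeR p below 0.05.

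Of 15 genes of cell junctions and polarity that feed into the pathway, 1 was higher and 9 lower at an unadjusted edgeR p below 0.05 (1 and 7 with the DESeq2 Wald test), with a median log2 fold change of -0.37. Dchs1, a cadherin that binds FAT4, measured 77.2 ± 16.1 and 32.4 ± 9.17 CPM (-1.25, edgeR adjusted p 0.0506). Wwc1, the gene of the scaffold KIBRA, was at -1.09, Ajuba, which binds LATS, at -0.59 and Nf2, the gene of merlin, at -0.37. Tjp1, the gene of the junction scaffold ZO-1, was the 1 higher gene, at 186 ± 13.4 and 246 ± 12.0 CPM (0.40). After GC correction Dchs1 was at -0.10, Wwc1 at -0.08, Ajuba at 0.57, Nf2 at 0.12 and Tjp1 at 0.24, and the median of the list was 0.05. At an unadjusted edgeR p below 0.05, 3 genes of the list were then higher and 2 lower.

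Of 15 genes of STRIPAK, a phosphatase complex that removes the activating phosphates from the Hippo kinases, 9 were higher and 4 lower at an unadjusted edgeR p below 0.05 (8 and 4 with the DESeq2 Wald test), with a median of 0.37. Among those with the smallest p were Stk25 (-0.51), Strn4 (-1.09), Mob4 (0.65) and Ppp2r1a (-0.61), a kinase, a striatin, the MOB family member phocein and the scaffold subunit of the phosphatase. Strn4 measured 77.0 ± 20.7 and 36.2 ± 9.68 CPM, and with the GC correction it was at -0.81 (edgeR adjusted p 0.0961). The correction put Stk25 at -0.38, with 0.02 for Mob4 and 0.07 for Ppp2r1a, and the median of the list was 0.02. With it 2 genes of the list were higher and 3 lower at an unadjusted edgeR p below 0.05. Stk25 shares 17.4% of its exon bases with Farp2 on the opposite strand (8015 to 10761 counts), and without strand the reads of both cannot be told apart, so its values are uncertain.

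Of 8 genes of YAP turnover and TEAD cofactors 6 were tested, and 2 were lower at an unadjusted edgeR p below 0.05 (1 with the DESeq2 Wald test), with a median of -0.23. These were the casein kinase genes Csnk1d (197 ± 11.2 and 119.6 ± 20.3 CPM, -0.72) and Csnk1e (-0.47), whose products take part in marking YAP and TAZ for destruction. Btrc, the F-box protein that recognises them, was at -0.18, and the TEAD cofactors Vgll3 and Vgll4 were at 0.28 and -0.27. With GC corrected for, Btrc was at -0.69, Csnk1d at -0.09, Csnk1e at 0.48, Vgll3 at -0.25 and Vgll4 at 0.65. In this fit 2 genes of the list were higher and 2 lower at an unadjusted edgeR p below 0.05. The cofactor genes Vgll1 and Vgll2 were not tested, Vgll1 having 0 counts in each library.

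**Figure D4:**
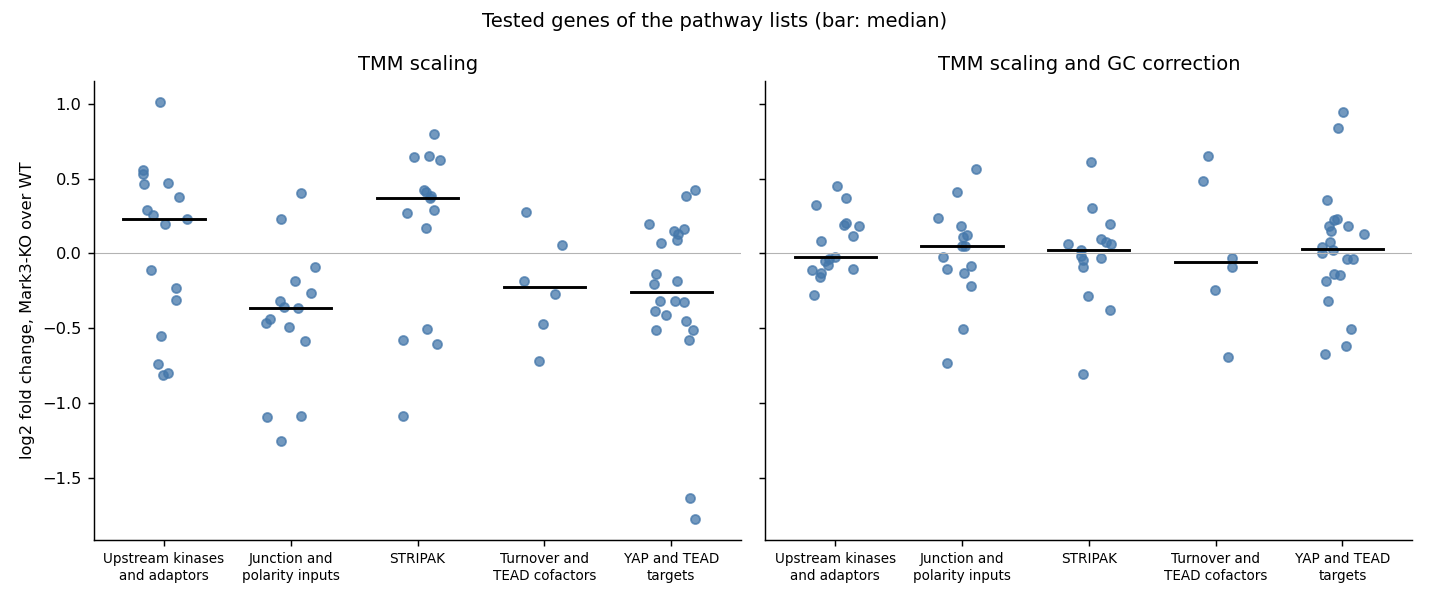
Points give the log2 fold change of Mark3-KO over WT (vertical axis) of each tested gene in the 5 pathway lists (horizontal axis), with the list's median as a bar, on the TMM scale at left and after the GC correction at right. The medians run from -0.37 to 0.37 at left and from -0.06 to 0.05 at right.

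The list of 22 YAP and TEAD target genes, which holds Lats2, Amotl2 and Ankrd1, had a median log2 fold change of -0.26, with 2 genes higher and 5 lower at an unadjusted edgeR p below 0.05 (1 and 3 with the DESeq2 Wald test). Arhgef17, which encodes a guanine nucleotide exchange factor, measured 149 ± 57.4 and 43.6 ± 21.8 CPM (-1.77, edgeR adjusted p 0.0506). The receptor tyrosine kinase gene Axl measured 361 ± 52.7 and 277 ± 19.6 CPM (-0.38, edgeR adjusted p 0.0666). Nt5e, which encodes the ectonucleotidase CD73, was at 0.43 and the growth factor gene Tgfb2 at 0.38, with edgeR adjusted p of 0.07596 and 0.0761. With the GC correction Arhgef17 was at -0.67, Axl at 0.23, Nt5e at 0.35 and Tgfb2 at 0.22.

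Ccn1 and Ccn2, chosen after their values were seen because they are classical targets, are matricellular genes at high levels. Ccn1 measured 508 ± 34.4 CPM in WT, against 382 ± 103 in Mark3-KO (-0.41, SE 0.19, edgeR adjusted p 0.142), and -0.04 with the GC correction. Ccn2 measured 386 ± 32.04 and 428 ± 17.1 CPM (0.15, SE 0.10, edgeR adjusted p 0.270), and 0.18 with the GC correction. It shares 23.2% of its exon bases with Gm15270 on the opposite strand, which held 30 to 99 counts. Both overlapped between the groups, as did Ankrd1. With the GC correction the median of the 22 targets was 0.03, with 4 higher and 2 lower at an unadjusted edgeR p below 0.05, against 26.3% of all tested genes in either direction.

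**Figure D5:**
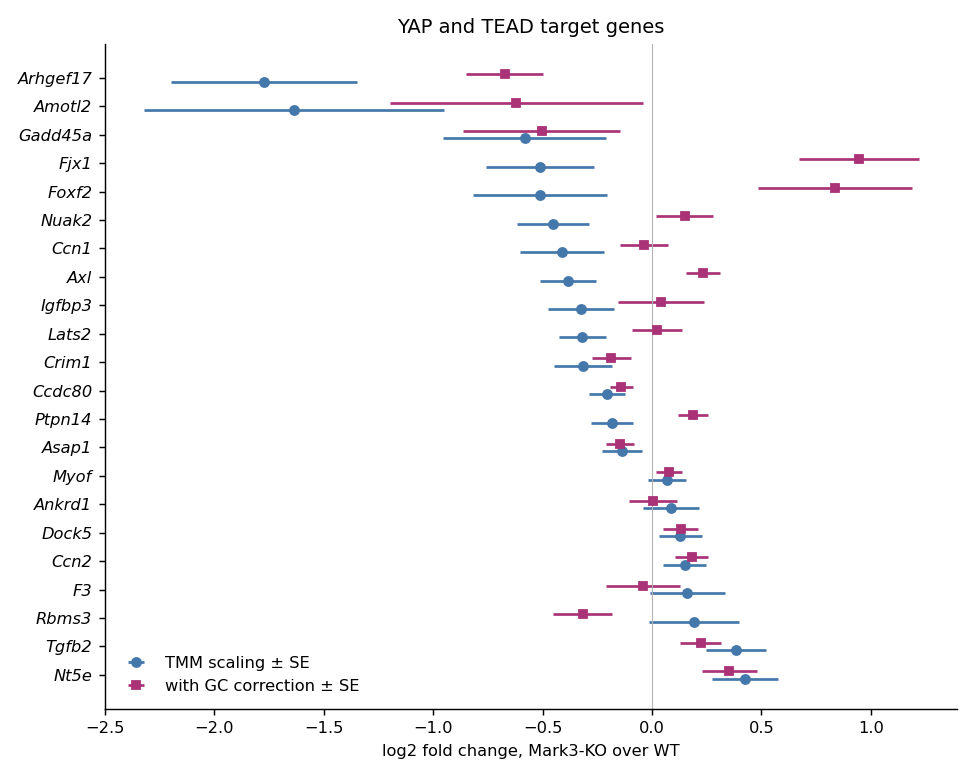
The log2 fold change of Mark3-KO over WT (horizontal axis, ± SE) is given for the 22 YAP and TEAD target genes (vertical axis), on the TMM scale (circles) and with the GC correction (squares). Arhgef17 (-1.77) and Amotl2 (-1.64) lie furthest to the left on the TMM scale, and Ankrd1 (0.09) and Ccn2 (0.15) near 0.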

How the data were processed

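The deposited table holds whole-number counts per Ensembl gene, as made by the authors. The submitters' processing notes name HISAT2 2.0.5, StringTie, DESeq2 and FastQC, and the build GRCm38. Their order, settings and annotation, and the handling of shared reads, are not given in the sources used here. Per the labels' protocols, libraries were made with a TruSeq RNA kit, which does not keep the strand. Of 51912 IDs, 51719 matched GENCODE M21 (GRCm38), which gave symbols, coordinates, exon lengths and transcript GC content. Promoters are from RefSeq (GRCm38.p6).

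Counts were filtered with filterByExpr, scaled with TMM and tested with edgeR 4.0.16 (R 4.3.3) on all 6 libraries, with Benjamini-Hochberg adjustment over 19017 genes. An SE is the size of a log2 fold change divided by the root of its F statistic. The GC correction fitted, per library, a natural spline with 6 degrees of freedom to log2 CPM deviations (prior count 2) and entered it as an offset. Alternatives were DESeq2 1.42.0, limma-voom (limma 3.58.1), other scalings and filters, a fit blocked on replicate number, and fits without 1 library at a time. The fits were tested on simulated counts in which the changes set were unrelated to GC content. Such counts cannot show whether the GC correction removed a real difference between the groups here. Named genes are the 10 members, Mark3, in each pathway list the 5 with the smallest p, and the 3 with the nearest profiles. 1 gene that this rule takes is not reported here. Profiles used log2(CPM + 0.5). Members, lists and tests were chosen with earlier results of these data known.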

Additional observations from a re-analysis of the deposited data

How the results depend on the processing

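The 41 genes called over the whole table moved to 4510 with library size alone, 27 with limma-voom, 6915 under DESeq2's Wald test, 5266 with a filter of 1 CPM in 3 libraries, 72 with the GC correction and 8317 at an adjusted p below 0.1. With any library left out the count ran from 0 (without WT replicate 2) to 6460 (without WT replicate 3). The count of members called, 0 of 10 in the reported edgeR fit, was 3 with library size alone (Tead1, Tead3 and Tead4), 3 with the filter of 1 CPM, 5 with the DESeq2 Wald test and 6 at an adjusted p below 0.1. Of all genes tested, 23.7, 37.4, 38.6 and 43.7% were called in these settings, against 0.216% in the reported fit. The count of members ran from 0 to 5 with a library left out. It was 4 without WT replicate 3 and 5 without Mark3-KO replicate 1, where 32.9 and 32.1% of all tested genes were called.

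Same-numbered libraries of the groups deviated together for numbers 1 and 3 and not for number 2 (Pearson r over genes 0.329, 0.292 and -0.0325), and the labels name nothing that a number marks, so a pairing was not established. Replicate 2 of each group correlated best with another number (WT with Mark3-KO replicate 1, 0.061, and Mark3-KO with WT replicate 3, 0.0907). With the replicate block 8487 of 19017 tested genes and 7 of the 10 members were called. With the GC correction and the replicate block 1592 of 19017 genes and 1 member (Tead1) were called. The pathway lists, in the order of the report, held 17, 15, 15, 6 and 22 tested genes. Of these the replicate block called 11, 10, 13, 2 and 10, and 0, 2, 3, 1 and 1 with the GC correction added. Among the latter were Strn4 (edgeR adjusted p 0.0174), Btrc (0.0218), Arhgef17 (0.0313), Stk25 (0.0341) and Ajuba (0.0345), whose sign had turned to higher.

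Directions turned as follows. With a library left out, Yap1 ran from -0.5844 to 0.0733 (above 0 without Mark3-KO replicate 2) and Wwtr1 from -0.0757 to 0.0336 (above 0 without WT replicate 1 and without replicate 1 or 2 of Mark3-KO). Wwtr1 was at 0.11 with library size alone and 0.0245 with the filter of 1 CPM. Under GC correction, and in brackets with the replicate block added, Tead4 was at 0.11 (0.12), Lats1 at -0.0569 (-0.0583), Lats2 at 0.0229 (0.0172), Taok2 at 0.21 (0.20), Stk3 at -0.0382 (-0.03805), Ajuba at 0.57 (0.57), Nf2 at 0.12 (0.13), Ppp2r1a at 0.0749 (0.0776), Csnk1e at 0.48 (0.45), Vgll3 at -0.25 (-0.24), Vgll4 at 0.65 (0.63) and Axl at 0.23 (0.23). The log2 fold change of Tead1 kept its sign in all 15 alternatives, between -1.52 and -1.13, and passed in 7. The cause of these shifts was not tested. Tead4, at 139 to 395 counts, had the fewest reads of the 10 genes.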
